A study of Oryza sativa with 9 samples.

Results

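The genes described here are 9 plasma membrane intrinsic proteins (PIPs) of rice and the silicon channel Lsi1. They were taken by locus identifier as the rows for PIP1;1 to PIP1;3, PIP2;1 to PIP2;6 and Lsi1, which gave 10 loci of the 55801 in the deposited table. All 10 passed the filter on low counts that left 26112 genes for testing. The libraries came from shoots of ZH11 seedlings with 4 leaves that had spent 2 d at 4 °C. The groups were osdreb2b knockout plants, ossro1c knockout plants and wild type (WT), with 3 libraries each. All of them were chilled, so no difference below describes the response to cold itself. The labels give neither how the knockouts were made, nor the number of lines behind each, nor whether a replicate is a plant or a pool. The p-values therefore set each difference against the spread between these libraries, which may be technical.

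Aquaporins are membrane channels of the major intrinsic protein family that let water, and in some members small uncharged solutes, pass along a gradient. PIPs sit in the plasma membrane and fall into the PIP1 and PIP2 classes. PIP2 proteins form efficient water channels on their own, whereas PIP1 proteins often reach the membrane only in tetramers with PIP2 partners. In leaves PIPs carry water between the veins and the mesophyll, and in roots between the soil side and the vessels. Lsi1 belongs to another subfamily, the NIPs (nodulin 26-like intrinsic proteins), and is known as the channel through which rice roots take up silicic acid.

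Library totals ran from 58398026 to 69336224 counts. Levels are given as CPM, which here are counts set to a common library size by TMM (edgeR's trimmed mean of M-values). They are not divided by transcript length, which the table does not hold, so tests compare the level of 1 gene between groups. Where genes are picked or summed by CPM, or called low-count, this refers to counts in these libraries and not to transcript numbers. Of the ossro1c libraries, replicate 3 lay away from the other two on the third principal component, which held 4.83% of the variance. OsDREB2B (LOC_Os05g27930), the gene named by the osdreb2b label, averaged 311 ± 10.3 CPM in the libraries with that label, 68.8 ± 9.96 CPM in those labelled ossro1c and 169 ± 3.42 CPM in WT (SD, n = 3 each). OsSRO1c (LOC_Os03g12820), named by the ossro1c label, averaged 134 ± 4.29 CPM in the libraries labelled osdreb2b, 415 ± 36.2 CPM in those labelled ossro1c and 2049 ± 27.4 CPM in WT. Neither transcript was lowest under its own label. Below, osdreb2b and ossro1c therefore stand for the libraries labelled osdreb2b and the libraries labelled ossro1c, and each direction belongs to the libraries with that label.

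In the libraries labelled osdreb2b, Lsi1 and PIP2;6 were higher than in WT, whereas PIP1;2, PIP2;2 and the low-count PIP2;3 and PIP2;4 were lower. By edgeR's quasi-likelihood test, with p-values adjusted over the 26112 genes and a threshold of 0.05, 3 of the 10 members rose relative to WT, 4 fell and 3 did not pass. In this comparison 59.6% of all tested genes were called, 29.9% higher and 29.6% lower, so the members' share is near the background. Their median log2 fold change was -0.46, against 0.033 over all tested genes. That sign rested on the 3 low-count PIP2 genes. With them left out, the middle value among the members was 0.17, that of PIP1;3. The osdreb2b and WT libraries did not overlap in CPM for 8 of the 10 members, against 70% of tested genes, of which 35.2% had all osdreb2b libraries above WT and 34.9% all below.

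In the libraries labelled ossro1c, Lsi1 rose most, PIP1;3, PIP2;1 and PIP2;6 rose too, and the strongest fall outside the low-count genes was that of PIP2;2. Here 4 of the 10 members rose relative to WT, 4 fell and 2 did not pass, against 60.9% of all tested genes called, 29.4% higher and 31.4% lower. The share of all calls that were higher was 48.4%, but 63.2% when raw library totals replaced TMM. The members' median log2 fold change was -0.59, against -0.0014 over all tested genes. Here too the sign turned when the low-count PIP2 genes were left out, with a middle value of 0.45, that of PIP2;1. Groups did not overlap for 9 of the 10 members, against 67.2% of tested genes, 32.5% above and 34.7% below. Both comparisons use the same WT libraries, so their values stand side by side below and their likeness is not counted as a result.

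Between the mutant labels, PIP1;1 and PIP2;2 were higher in osdreb2b than in ossro1c, and 4 members, Lsi1 among them, were lower. The other 4 did not pass. Of all tested genes 46.5% were called, 22.9% higher and 23.6% lower, and the share of calls that were higher was 49.2%, but 35.3% with raw library totals. The members' median was -0.45, against -0.017 over all tested genes. With the low-count PIP2 genes left out, the middle value was -0.29, that of PIP2;6. The libraries of the mutant labels did not overlap for 6 of the 10 members, against 54.9% of tested genes, 27.1% above and 27.8% below.

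**Figure D1:**
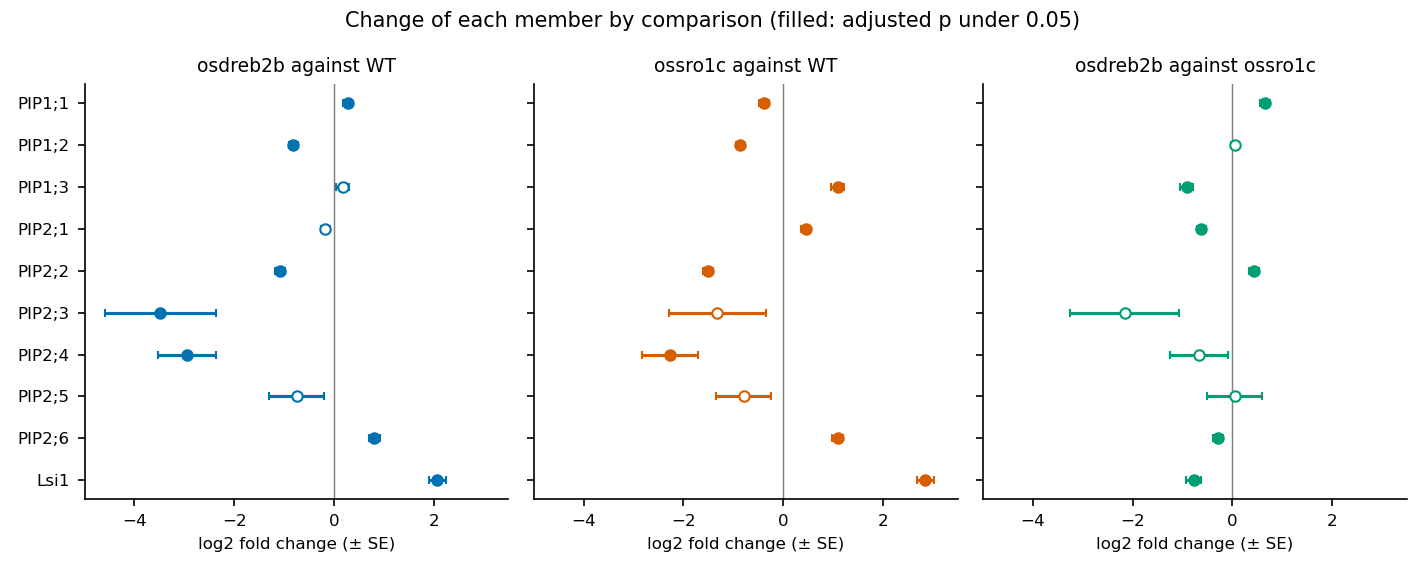
Log2 fold change of each of the 10 members, on the horizontal axis with its SE, for osdreb2b against WT, ossro1c against WT and osdreb2b against ossro1c. Filled points passed an adjusted p of 0.05. Lsi1 lies farthest to the right in both comparisons with WT, at 2.08 in osdreb2b and 2.85 in ossro1c, and the bars of the 3 low-count PIP2 genes are the widest.

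The 3 PIP1 genes followed different patterns. PIP1;1 (LOC_Os02g44630, chromosome 2), an early described rice water channel gene also known as RWC1, had 120.2, 102 and 109 CPM in osdreb2b, 65.9, 64.3 and 79.9 CPM in ossro1c, and 90.7, 90.5 and 92.7 CPM in WT. The osdreb2b libraries were the highest, the ossro1c libraries the lowest, and no groups overlapped. Relative to WT it was higher in osdreb2b by 0.27 on the log2 scale (SE 0.093, adjusted p = 0.021, edgeR) and lower in ossro1c, at -0.38 (SE 0.093, adjusted p = 0.0029). The first call was lost without any 1 of the WT libraries or without osdreb2b replicate 1 (adjusted p = 0.050 to 0.11), and the second under upper-quartile scaling (log2 -0.22, adjusted p = 0.054) and with raw library totals (log2 -0.064, adjusted p = 0.54). The direct difference, 0.66 higher in osdreb2b than in ossro1c (SE 0.094, adjusted p = 5.7e-05), passed under every alternative run.

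PIP1;2 (LOC_Os04g47220, chromosome 4) codes for a second PIP1 protein. It had 59.5, 49.1 and 52.4 CPM in osdreb2b, 49.2, 52.2 and 53.7 CPM in ossro1c, and 93.9, 98.7 and 90.5 CPM in WT. All 6 mutant libraries lay below all 3 WT libraries, and the mutant labels overlapped. The gene was 1.76-fold lower in osdreb2b than in WT (log2 -0.81, SE 0.086, adjusted p = 2e-06) and 1.82-fold lower in ossro1c (log2 -0.87, SE 0.086, adjusted p = 1.1e-06). The difference between the labels was 0.053 on the log2 scale, with a 95% interval of -0.11 to 0.22 (adjusted p = 0.65), and its sign changed with raw totals.

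PIP1;3 (LOC_Os02g57720, chromosome 2), also known as RWC3 and studied in rice for its response to water deficit, had 17.6, 13.9 and 14.7 CPM in osdreb2b, 27.9, 25.7 and 33.9 CPM in ossro1c, and 13.2, 15.5 and 12.3 CPM in WT. The ossro1c libraries stood above all others, and those of osdreb2b and WT overlapped. It rose 2.13-fold in ossro1c relative to WT (log2 1.09, SE 0.14, adjusted p = 9.7e-06). In osdreb2b the log2 fold change was 0.17 (SE 0.14, adjusted p = 0.29), with a 95% interval of -0.092 to 0.44. Set against each other, the mutant labels differed 1.89-fold, lower in osdreb2b (log2 -0.92, SE 0.13, adjusted p = 7.5e-05).

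**Figure D2:**
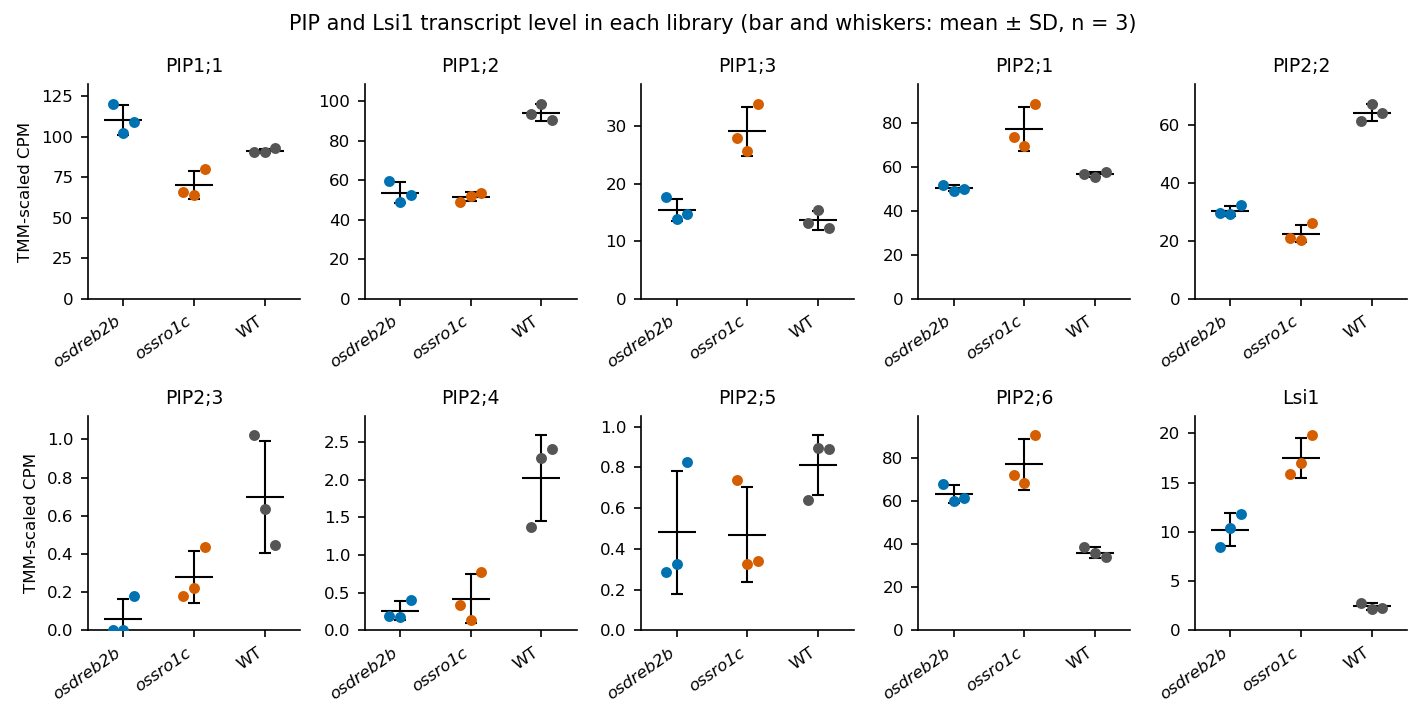
TMM-scaled CPM of each member (vertical axis, starting at 0, with its own scale per gene) in the 3 libraries of osdreb2b, ossro1c and WT. Points are libraries, and the bar with whiskers is the mean ± SD. Lsi1 stands above WT under both mutant labels and PIP2;2 below it, and the 3 low-count PIP2 genes stay under 3 CPM throughout.

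The PIP2 genes with more counts moved in different directions. PIP2;1 (LOC_Os07g26690, chromosome 7), a water channel gene of this class, had 51.8, 49.1 and 49.9 CPM in osdreb2b, 73.6, 69.5 and 88.7 CPM in ossro1c, and 56.9, 55.4 and 57.5 CPM in WT. Its libraries were highest under the ossro1c label and lowest under the osdreb2b label, with no overlap. It rose 1.37-fold in ossro1c relative to WT (log2 0.45, SE 0.091, adjusted p = 0.00074). In osdreb2b the log2 fold change was -0.17 (SE 0.091, adjusted p = 0.13), which passed when only the 6 libraries of these groups were fitted (adjusted p = 0.015) or without ossro1c replicate 3 (adjusted p = 0.011). The gene was 1.54-fold lower in osdreb2b than in ossro1c (log2 -0.62, SE 0.091, adjusted p = 7.7e-05).

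PIP2;2 (LOC_Os02g41860, chromosome 2), of the same class, had 29.5, 29.2 and 32.2 CPM in osdreb2b, 21.0, 20.4 and 26.0 CPM in ossro1c, and 61.2, 67.1 and 63.9 CPM in WT. Every library of either mutant label was below every WT library, with ossro1c lowest. It fell 2.11-fold in osdreb2b relative to WT (log2 -1.08, SE 0.10, adjusted p = 6.1e-07) and 2.85-fold in ossro1c (log2 -1.51, SE 0.10, adjusted p = 2.3e-08). The direct difference of 0.43 (SE 0.10, adjusted p = 0.0031), higher in osdreb2b, passed as well.

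PIP2;6 (LOC_Os04g16450, chromosome 4), reported to pass arsenite as well as water, had 68.2, 60.0 and 61.7 CPM in osdreb2b, 72.4, 68.6 and 90.6 CPM in ossro1c, and 38.6, 36.0 and 33.9 CPM in WT. Of the 9 PIP members it was the one with all 6 mutant libraries above all 3 of WT. It rose 1.75-fold in osdreb2b relative to WT (log2 0.81, SE 0.11, adjusted p = 1.7e-05) and 2.13-fold in ossro1c (log2 1.09, SE 0.11, adjusted p = 9.4e-07). The difference between the labels was -0.29 on the log2 scale (SE 0.11, adjusted p = 0.041). That call was lost without any 1 of the WT libraries, without ossro1c replicate 3 (log2 -0.16), and without osdreb2b replicate 2 or 3, with adjusted p-values of 0.053 to 0.16.

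The other 3 PIP2 genes were near the lower end of what the libraries measured. PIP2;3 (LOC_Os04g44060, chromosome 4), known in rice mainly from roots, had 0, 0 and 12 counts in osdreb2b, 12, 17 and 33 counts in ossro1c, and 59, 36 and 26 counts in WT. If 1 count stood for 1 read, a count of 0 would allow up to 3 counts, or 0.0451 and 0.0492 CPM in those osdreb2b libraries, for counting error only. The gene was lower in osdreb2b than in WT (log2 -3.48, SE 1.11, adjusted p = 0.015), a call lost without WT replicate 1 (log2 -3.11, adjusted p = 0.062). Without osdreb2b replicate 3 the other osdreb2b libraries were both at 0, and the fitted log2 fold change of -8.51 is then no measure of size. Its log2 fold change in ossro1c was -1.32 (SE 0.98, adjusted p = 0.26). The comparison of the labels did not pass either (log2 -2.16, SE 1.09, adjusted p = 0.13), although it did without that library (adjusted p = 0.0025).

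PIP2;4 (LOC_Os07g26630) and PIP2;5 (LOC_Os07g26660) neighbour PIP2;1 on chromosome 7, with a pseudogene between them in the reference gene table. The first had 13, 11 and 27 counts in osdreb2b, 22, 11 and 59 counts in ossro1c, and 79, 130 and 140 counts in WT. All mutant libraries were below WT. It fell in osdreb2b relative to WT (log2 -2.94, SE 0.58, adjusted p = 0.00062) and in ossro1c (log2 -2.27, SE 0.56, adjusted p = 0.003), where the log2 fold change was -3.09 without ossro1c replicate 3. The second, known in rice mainly from roots, had 19, 20 and 55 counts in osdreb2b, 49, 25 and 26 counts in ossro1c, and 37, 51 and 52 counts in WT, and its groups overlapped. Its log2 fold changes of -0.75 in osdreb2b (SE 0.54, adjusted p = 0.26) and -0.79 in ossro1c (SE 0.54, adjusted p = 0.23) did not pass. PIP genes are close paralogs, and the sources used here do not say how reads shared between loci were counted, so values at these low loci are uncertain. The table also holds more loci with 4 counts (632 to 847 per library) than with 1 count (293 to 380), and its counting precision at such values is not known.

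Of the members that rose, Lsi1 did so by the largest fold under both mutant labels. Lsi1 (LOC_Os02g51110, chromosome 2) had 8.49, 10.4 and 11.8 CPM in osdreb2b, 15.8, 16.9 and 19.8 CPM in ossro1c, and 2.82, 2.18 and 2.26 CPM in WT. The groups did not overlap, and ossro1c was highest. It rose 4.22-fold in osdreb2b relative to WT (log2 2.08, SE 0.17, adjusted p = 1.2e-07) and 7.22-fold in ossro1c (log2 2.85, SE 0.17, adjusted p = 5.8e-09). Ranked among the log2 fold changes of all tested genes, these values stood at percentile 93.3 and percentile 96.2. The level was 1.71-fold lower in osdreb2b than in ossro1c (log2 -0.78, SE 0.15, adjusted p = 0.00088). In bulk tissue, more cells that hold a transcript and more of it per cell cannot be told apart.

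Root markers were read beside Lsi1, since the gene is known from roots. Of 8 listed root uptake genes 5 were tested, of which 1 was higher and 0 lower in osdreb2b than in WT, and 2 were higher and 1 lower in ossro1c. Of all tested genes 29.9% were higher and 29.6% lower in osdreb2b, and 29.4% higher and 31.4% lower in ossro1c. All 8 listed genes summed to 1091 to 1144 CPM in osdreb2b, 613 to 649 CPM in ossro1c and 702 to 717 CPM in WT, nearly all from the potassium transporter OsHAK1. Leaving out OsHAK1, the root genes summed to 3.05 to 4.79 CPM in osdreb2b, 4.16 to 5.77 CPM in ossro1c and 2.85 to 3.91 CPM in WT. The mean in ossro1c was 88.4% of WT with OsHAK1 and 145% without it, so its direction turned with that gene. In osdreb2b it was 157% and 117%. The silicon exporter Lsi2, which works with Lsi1 in roots, was at 0 counts in all 9 libraries, and the nitrate transporter OsNRT2.1 had 0 to 7 counts. OsNAR2.1 (LOC_Os02g38230), a partner protein of nitrate transporters, averaged 0.600 ± 0.157 CPM in ossro1c and 0.173 ± 0.0880 CPM in WT (adjusted p = 0.049, edgeR). The ammonium transporter locus LOC_Os02g40730 averaged 2.67 ± 0.572 CPM in ossro1c and 1.51 ± 0.313 CPM in WT (adjusted p = 0.020). OsIRT1 (LOC_Os03g46470) went the other way without passing. It averaged 0.119 ± 0.0248 CPM in osdreb2b, 0.0917 ± 0.0820 CPM in ossro1c and 0.295 ± 0.0152 CPM in WT, with all mutant libraries below WT. OsNramp5 (LOC_Os07g15370) passed in neither comparison with WT, except in osdreb2b without WT replicate 1. The OsNAR2.1 call was lost without WT replicate 1 or 2, without any 1 of the ossro1c libraries, without osdreb2b replicate 1, with the replicate block and with no filter on low counts. The call at the ammonium transporter locus was lost without WT replicate 1 or 3 and without ossro1c replicate 1. OsHAK1 (LOC_Os04g32920) averaged 1112 ± 27.4 CPM in osdreb2b, 623 ± 18.9 CPM in ossro1c and 707 ± 7.86 CPM in WT, and its call as lower in ossro1c (log2 -0.18, adjusted p = 0.017) turned to higher with raw library totals. That call was also lost under upper-quartile scaling, with the filter at 1 CPM, in the fit on 6 libraries, and without WT replicate 2, WT replicate 3 or ossro1c replicate 1. The part of root tissue in the Lsi1 values was not tested.

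Counted together, the 9 PIP members summed to 347, 304 and 321 CPM in osdreb2b, 311, 301 and 374 CPM in ossro1c, and 357, 367 and 355 CPM in WT. Replicate 3 of ossro1c was the highest of all and the other ossro1c libraries were below WT. The mean was 90.1% of WT in osdreb2b and 91.5% in ossro1c, but 99.4% and 114% with raw library totals, so the direction in ossro1c turned with the scaling. The make-up of the sum does not depend on how libraries are scaled. PIP2;6 gave 19.5 ± 0.287% of the PIP counts in osdreb2b and 23.4 ± 0.740% in ossro1c, against 10.1 ± 0.655% in WT. PIP2;2 gave 9.38 ± 0.798% in osdreb2b and 6.82 ± 0.105% in ossro1c, against 17.8 ± 0.606% in WT. PIP1;2 gave 16.5 ± 0.532% in osdreb2b and 15.8 ± 1.49% in ossro1c, against 26.2 ± 0.688% in WT. Other shares differed between the labels. Within the 9 members, PIP1;1 gave 34.0 ± 0.520% in osdreb2b and 21.3 ± 0.104% in ossro1c, against 25.4 ± 0.752% in WT. That share was above WT in osdreb2b and below it in ossro1c, an order that turned with PIP2;7 in the sum. PIP2;1 gave 15.5 ± 0.625% in osdreb2b and 23.5 ± 0.347% in ossro1c, against 15.7 ± 0.583% in WT. PIP1;3 ran from 4.58% to 5.08% in osdreb2b and from 8.52% to 9.06% in ossro1c, against 3.48% to 4.22% in WT. The whole PIP1 class made up 55.3 ± 1.33% in osdreb2b, 46.0 ± 1.22% in ossro1c and 55.4 ± 0.317% in WT (SD, n = 3 each). These sums are a description with no test, and longer transcripts weigh more in them. The shares are of the 9 members only and leave out PIP2;7 and PIP2;8, PIP2 genes outside the members. With both added, the sum averaged 1169.5 CPM in osdreb2b, 642 CPM in ossro1c and 905 CPM in WT. In the same order, the PIP1 members averaged 179, 151 and 199 CPM, and PIP1;1 averaged 110, 70.0 and 91.3 CPM. Of that larger sum, the PIP1 share and the PIP1;1 share were both lowest in osdreb2b and highest in ossro1c.

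**Figure D3:**
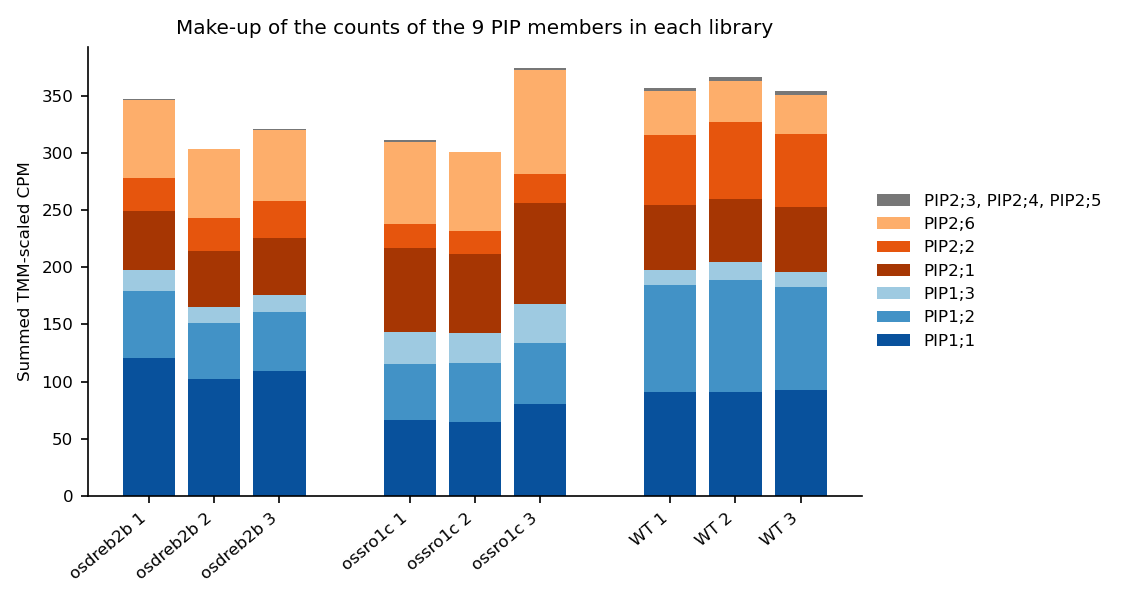
Stacked TMM-scaled CPM of the 9 PIP members (vertical axis, from 0) in each of the 9 libraries, osdreb2b at the left, then ossro1c and WT. Blue parts are PIP1 genes, orange parts PIP2 genes and grey tops the 3 low-count PIP2 genes. The heights run from 301 to 374 CPM, and the make-up of the bars differs between the labels and WT more than their height.

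Aquaporins outside the 10 members were read from a list of 16 loci, of which 13 were tested. In osdreb2b 10 of the 13 were higher than in WT and 1 lower, against 29.9% higher and 29.6% lower of all tested genes. The median log2 fold change was 1.04, against 0.033 over all tested genes. The higher count was 11 under other scalings, the DESeq2 test, the replicate block, or without WT replicate 3 or ossro1c replicate 3. Among the 10 is a gene at 0 counts in every WT library, with 4, 24 and 10 counts in osdreb2b. It had 9, 15 and 14 counts in ossro1c and was called higher there too. In ossro1c 5 were higher and 5 lower, against 29.4% and 31.4% of all tested genes, with a median of 0.24, which was -0.099 without ossro1c replicate 3. Between the labels 5 were higher in osdreb2b and 1 lower, against 22.9% and 23.6% of all tested genes. The lower count there was 3 without ossro1c replicate 1 and 2 with raw totals or the filter at 1 CPM. A further PIP2 gene, PIP2;7 (LOC_Os09g36930), studied in rice for its response to chilling, had 841, 798 and 897 CPM in osdreb2b, 288, 273 and 377 CPM in ossro1c, and 531, 564 and 540.3 CPM in WT. Its groups did not overlap, with osdreb2b highest and ossro1c lowest. It rose 1.55-fold in osdreb2b relative to WT (log2 0.63, SE 0.10, adjusted p = 0.00013), fell 1.74-fold in ossro1c (log2 -0.80, SE 0.10, adjusted p = 1.4e-05), and was higher in osdreb2b than in ossro1c by 1.43 on the log2 scale (adjusted p = 8.8e-08). With this gene and the nearly uncounted PIP2;8 in the sum, PIP counts on TMM scaling came to 129% of WT in osdreb2b and 70.9% in ossro1c. Unscaled, that sum held 39818, 44181 and 56997 counts in ossro1c, and 51355, 52930 and 52150 counts in WT. The library totals were 58398026, 67792790 and 69336224 counts in ossro1c, and 64681976, 62942994 and 64783631 counts in WT. Divided by them, ossro1c replicate 3 lay within the WT range and the other ossro1c libraries lay below it.

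Tonoplast intrinsic proteins (TIPs) are the aquaporins of the vacuole membrane. The 9 TIP loci summed to 355% of WT in osdreb2b and 78.3% of WT in ossro1c, both on TMM scaling. Unscaled, the sum held 22156, 25638 and 31108 counts in ossro1c, and 25978, 26813 and 26472 counts in WT. Divided by the library totals given above, ossro1c replicate 3 was above every WT library and the other ossro1c libraries were below. The ossro1c mean with raw library totals was not computed. TIP2;2 (LOC_Os06g22960) averaged 589 ± 26.7 CPM in osdreb2b, 89.7 ± 12.7 CPM in ossro1c and 165 ± 3.42 CPM in WT. TIP1;1 (LOC_Os03g05290) averaged 172 ± 7.19 CPM in osdreb2b, 37.7 ± 8.46 CPM in ossro1c and 74.8 ± 3.41 CPM in WT. TIP1;2 (LOC_Os01g74450) ran from 37.4 to 44.4 CPM in osdreb2b, from 3.04 to 4.19 CPM in ossro1c and from 7.31 to 9.75 CPM in WT. These TIP genes passed in each comparison. The mean levels of TIP2;2, TIP1;1 and TIP1;2 were 357%, 230.3% and 484% of WT in osdreb2b, and 54.5%, 50.4% and 43.2% of WT in ossro1c. TIP4;1 (LOC_Os05g14240) averaged 824 ± 24.2 CPM in osdreb2b, 225 ± 23.9 CPM in ossro1c and 207 ± 4.50 CPM in WT. It rose 3.97-fold in osdreb2b (adjusted p = 1.3e-10, edgeR). Its change in ossro1c (adjusted p = 0.21) passed under upper-quartile scaling, with raw totals, with a filter at 1 CPM and in the fit on 6 libraries.

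Leaf markers differed in the same libraries. The 4 leaf markers, Rubisco small subunit and chlorophyll a/b binding protein genes, summed to 19340 to 20488 CPM in osdreb2b, 7352 to 10613 CPM in ossro1c and 8377 to 8745 CPM in WT. All 4 were higher in osdreb2b than in WT, where 29.9% of all tested genes were higher. In ossro1c 1 was higher and 1 lower, or 1 higher and 3 lower without ossro1c replicate 3, against 29.4% and 31.4% of all tested genes. Their part in the aquaporin values was not tested.

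Among the NIPs, Lsi6 (LOC_Os06g12310), a relative of Lsi1 known in rice for moving silicon out of the xylem in leaves and nodes, had 123, 118 and 119 CPM in osdreb2b, 253, 251 and 248 CPM in ossro1c, and 93.9, 89.3 and 86.1 CPM in WT. The order was that of Lsi1, with ossro1c highest, osdreb2b next and WT lowest, and no groups overlapped. It rose 1.34-fold in osdreb2b relative to WT (log2 0.42, SE 0.066, adjusted p = 8.5e-05) and 2.79-fold in ossro1c (log2 1.48, SE 0.067, adjusted p = 4.5e-10). It was 2.09-fold lower in osdreb2b than in ossro1c (log2 -1.06, SE 0.066, adjusted p = 1.8e-08). NIP1;1 (LOC_Os02g13870) rose 1.55-fold in osdreb2b and 1.95-fold in ossro1c. NIP3;1 (LOC_Os10g36924) also rose under both labels, but with all osdreb2b libraries above those of ossro1c, a difference that did not pass. SIP2;1 (LOC_Os03g20410), of the small basic intrinsic proteins, rose 2.06-fold in osdreb2b and 1.83-fold in ossro1c.

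**Figure D4:**
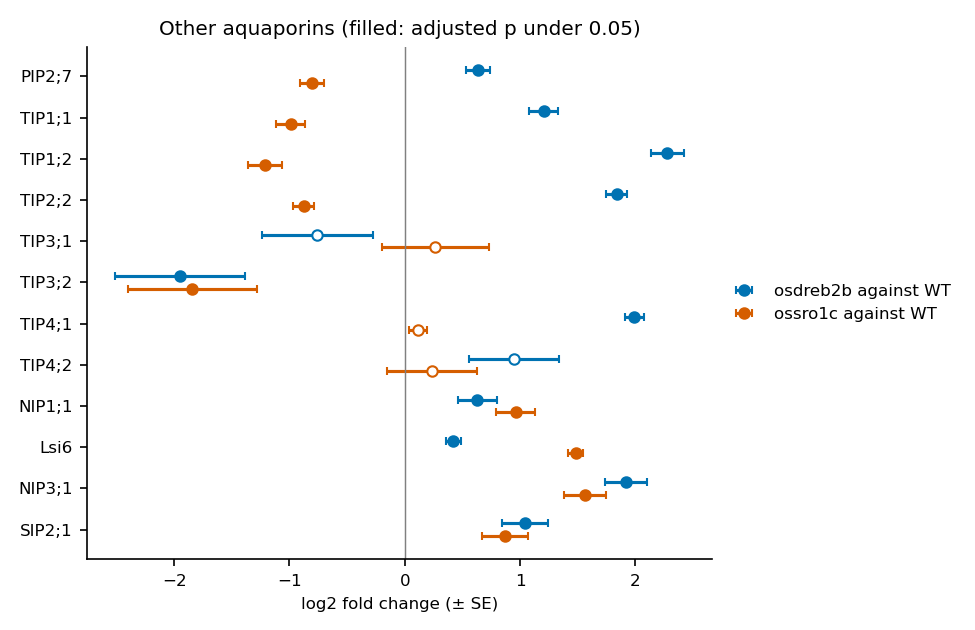
Log2 fold change with its SE (horizontal axis) of 12 tested aquaporins outside the members, for osdreb2b against WT (blue) and ossro1c against WT (orange). Filled points passed an adjusted p of 0.05. PIP2;7 and 3 TIP genes lie right of 0 in osdreb2b and left of 0 in ossro1c, and the TIP gene whose WT libraries were all at 0 is left out.

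Likeness to other genes was measured as the root mean square difference of log2 CPM, each gene centred on its own mean, over the 9 libraries. For PIP1;1, picked as the member with the most counts after scaling, the nearest tested loci were LOC_Os03g51950 (0.046), LOC_Os09g32200 (0.063) and LOC_Os04g25570 (0.066). The nearest of them averaged 85.3 CPM in osdreb2b, 52.5 CPM in ossro1c and 69.9 CPM in WT. For Lsi1 they were LOC_Os01g59020 (0.11), LOC_Os10g02480 (0.13) and LOC_Os06g13760 (0.15), and LOC_Os01g59020 averaged 27.7 CPM in osdreb2b, 51.4 CPM in ossro1c and 6.75 CPM in WT. Among the members themselves the closest pair was PIP1;3 with PIP2;1 (0.287), followed by PIP1;2 with PIP2;2 (0.290). The libraries form 3 groups, so these distances mostly compare group levels.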

How the data were processed

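Shoot RNA from 9 libraries was, per the labels' protocols, extracted with TRIzol, and the SMARTER mRNA kit served for the libraries. The authors deposited 1 table of raw counts per locus, with no normalisation. The submitters' processing notes list DESeq2, StringTie 2.1.4, HISAT2 2.2.1 and fastp 0.23.4, with no roles. No source used here gives the genome build, the annotation or the strand setting. Groups and replicates came from the sample titles, and 0 columns were left unused.

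edgeR's filterByExpr kept 26112 genes, which held 99.96% to 99.98% of each library. The fit in edgeR 4.0.16 (R 4.3.3) was robust quasi-likelihood on TMM-scaled libraries with 1 coefficient per group over all 9. Benjamini-Hochberg adjustment ran over all tested genes. An SE was computed as the size of a log2 fold change over the root of its F statistic and is approximate, and 95% intervals are normal intervals from it. Alternatives were other scalings, DESeq2 1.42.0, other filters, a fit on the 6 libraries compared, a replicate block and leaving out each library. Replicates differed by more than sampling noise (chi-square per degree of freedom 8.56 to 84.4, the highest in pairs with ossro1c replicate 3), so none was merged.

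The members and lists were chosen with earlier results of these data known. All members were named, with the 8 other aquaporins of highest mean CPM among those that passed in any comparison, and the 3 nearest loci of 2 members. NIP3;1 was added without values because its order of the labels differed. Locus names were checked against a reference gene table (assembly ASM3414082v1), where all 10 members lay on the expected chromosome, within 1.035 Mb of the interpolated position (median 0.049 Mb). Of 21 other aquaporins 5 were left out, as was 1 of 5 leaf markers, and the name of OsSRO1c could not be checked. Alternative names of the Rubisco genes were changed after that table was seen. Gene lengths and sequences were not used here, so the planned order of levels per length was not computed.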

Additional observations from a re-analysis of the deposited data

How the results depend on the processing

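Counts of genes and of members called stayed within 1.5 times the reported count in all 3 comparisons under every alternative run. Of the members' single changes, 478 recomputed values kept their direction and their side of the threshold, 13 lost the call, 3 gained one and 10 changed sign. With raw library totals the summed PIP1 members stood at 99.3% of WT in osdreb2b and 94.4% in ossro1c, the PIP2 members at 99.5% and 138%, and all PIP members at 99.4% and 114%. Upper-quartile scaling put PIP1 in ossro1c at 84.6%, PIP2 in osdreb2b at 97.7% and all PIP members in osdreb2b at 97.6% of WT. Adding PIP2;7 and PIP2;8 to the sum, an alternative chosen after seeing the data, gave 129% in osdreb2b and 70.9% in ossro1c with TMM. Percentages of WT for that sum were not recomputed under other scalings. Raw totals moved the median log2 fold change of all genes to 0.17 in osdreb2b and 0.32 in ossro1c against WT, and to -0.20 between the labels. The cause was not tested.

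All sign changes were in differences between osdreb2b and ossro1c that had not passed. PIP1;2 stood at -0.13 with raw totals and -0.030 with a filter at 1 CPM in 3 libraries, and ranged from -0.027 to 0.13 when 1 library was left out. PIP2;5 stood at -0.00011 under upper-quartile scaling, -0.14 with raw totals and -0.037 with the replicate block, and ranged from -0.60 to 0.52 when 1 library was left out. PIP2;4 ranged from -1.14 to 0.15.

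Replicate numbers did not pair the libraries. Deviations from group means of same-numbered libraries correlated at -0.0091 to 0.022, 0 of 9 pairs exceeded 0.1, and 2 of 9 libraries correlated best with their own number in both other groups. The replicate block gave 15264 genes for osdreb2b against WT, 15666 for ossro1c against WT and 11821 for osdreb2b against ossro1c, where 15562, 15892 and 12147 were called without it. The 3 low-count PIP2 genes had SE of 0.54 to 1.11 on the log2 scale, and what sets them was not tested. Under the filter at 1 CPM, PIP2;3 and PIP2;5 were not tested.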
